A study of Homo sapiens with 6 samples.

Results

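Transcripts of 10 genes were described in BEAS-2B cells: the Krüppel-like factors KLF2, KLF4, KLF5, KLF6 and KLF10, the class IIa histone deacetylases HDAC9, HDAC5 and HDAC7, and the MEF2 factors MEF2A and MEF2D. They were taken by symbol from a table of 61806 genes, and all 10 were among the 15451 genes with enough counts to be tested. The genes were selected on their measured levels in these 6 libraries, by treatment and by replicate number, so their own differences between treatments and between replicate numbers are given as a description, with no test. BEAS-2B is a line of immortalised cells from human bronchial epithelium, and all 6 polyA RNA libraries came from this line. Of these, 3 are labelled as controls and 3 as 15-KETE, an oxidised metabolite of arachidonic acid, and each group is numbered 1 to 3. The labels give no vehicle, dose or duration, do not say whether the replicates were separate cultures, and do not say what a replicate number stands for. The p-values below therefore set a difference only against the spread between these libraries, which may be technical. The comparison addresses which transcripts of airway epithelial cells 15-KETE changes.

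Krüppel-like factors are zinc-finger transcription factors that bind GC-rich and CACCC sites, and they act in cell differentiation, quiescence and growth. MEF2 factors are MADS-box proteins that bind an AT-rich element and turn on genes, KLF2 among them in endothelial cells, where MEKK3, MEK5 and ERK5 signal to MEF2. Class IIa deacetylases sit on MEF2 and silence its targets until kinases phosphorylate them, after which 14-3-3 proteins hold them in the cytoplasm. HDAC9 is itself a MEF2 target in muscle.

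Libraries held between 16844781 and 22876808 counts. Control replicate 2 stood apart in the length of the genes that its counts came from, with a median of 4786 exonic bases per count against 5529 to 6129 in the other 5 libraries. All 8 airway epithelial markers examined passed the filter on low counts, with summed FPKM (deposited fragments scaled to exonic length and library total) of 302.7 to 743.4 in control and 266 to 540.9 in 15-KETE libraries. Most of this sum came from KRT7, KRT18, KRT8 and ITGB4, with medians of 166, 83.2, 44.6 and 13.8 FPKM. The medians of KRT5 (1.43), CDH1 (0.645), EPCAM (0.46) and KRT19 (0.455) were low, below that of the fibroblast marker COL1A1 (3.31). The 6 endothelial markers summed to between 1.36 and 2.16 FPKM in every library, 6 leukocyte markers to at most 0.38, 5 muscle markers to at most 0.95 and 5 fibroblast markers to between 2.87 and 4.86. The epithelial sums were 266 to 317.9 in the replicate 1 libraries and 290.7 to 743.4 in the other 4, and whether they bear on the differences by number below was not tested. Values below are CPM, counts scaled to the library size, which was adjusted by the trimmed mean of M values (TMM), unless FPKM is named. Of all genes tested, 0 passed edgeR's quasi-likelihood test between 15-KETE and control at an adjusted p below 0.05 (percent of genes called: 0), with 25 genes at an unadjusted p below 0.05. In this fit the spread between replicate numbers enters the error, so a count of 0 does not show that 15-KETE changed no gene. Log2 fold changes below are from this fit unless the block is named. In the fit with a block for the number, 0 genes passed again and 727 of the 15451 had an unadjusted p below 0.05. That is under the share of 0.05 expected at this threshold if no gene differed.

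KLF2, a factor induced by laminar flow in endothelial cells and needed for T cell quiescence, lies at chr19:16324826-16328685 on the plus strand, in coordinates as the table gives them. Its transcript was found at 13.8, 2.27 and 0.737 CPM in control replicates 1, 2 and 3 and at 12.1, 1.77 and 0.922 CPM in 15-KETE replicates 1, 2 and 3. Both replicate 1 libraries were high and the other 4 low, and the treatment groups overlapped. The lower of the replicate 1 values was 5.33 times the highest of the other 4. The counts were 258 and 225 in the replicate 1 libraries (exact Poisson 95% intervals, for counting error only, 227 to 291 and 197 to 256), 42 and 40 in the replicate 2 libraries (30.3 to 56.8 and 28.6 to 54.5), and 13 and 17 in the replicate 3 libraries (6.92 to 22.2 and 9.9 to 27.2). These counts are not scaled for depth; the intervals of the replicate 1 libraries lie above all others, and those of control and 15-KETE overlap within every number. The 15-KETE group averaged 4.93 ± 6.22 CPM and the control group 5.59 ± 7.12 (SD, n = 3 each), a log2 fold change of -0.19 ± 1.09 (SE). Without a block for the number, this value rested on the replicate 1 libraries, becoming 1.72 without the control one and -2.03 without the 15-KETE one. Each of these removals left the other replicate 1 library without its same-numbered partner. With the number as a block, the log2 fold change of KLF2 was -0.15 ± 0.252 (SE). In these bulk libraries, fewer cells with a transcript and less of it per cell cannot be told apart.

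HDAC9, a class IIa deacetylase whose short isoform lacks the catalytic domain, spans chr7:18086949-19002416 on the plus strand. It was found at 11.3, 2.00 and 3.29 CPM in control replicates 1, 2 and 3 and at 13.7, 1.73 and 3.31 CPM in 15-KETE replicates 1, 2 and 3. Again both replicate 1 libraries lay above the other 4, by at least 3.4-fold, and the treatment groups overlapped. The group means were 6.24 ± 6.51 CPM in 15-KETE and 5.52 ± 5.02 CPM in control libraries (SD, n = 3 each), a log2 fold change of 0.17 ± 0.812 (SE), which became 1.24 without control replicate 1 and -1.12 without 15-KETE replicate 1. With the number as a block, the log2 fold change of HDAC9 was 0.06 ± 0.229 (SE). KLF2 and HDAC9 differed in the order of the remaining libraries: KLF2 was lower in the replicate 3 than in the replicate 2 libraries, and HDAC9 was higher there. The root mean square (RMS) difference between their centred log2 CPM profiles over the 6 libraries was 0.934.

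**Figure D1:**
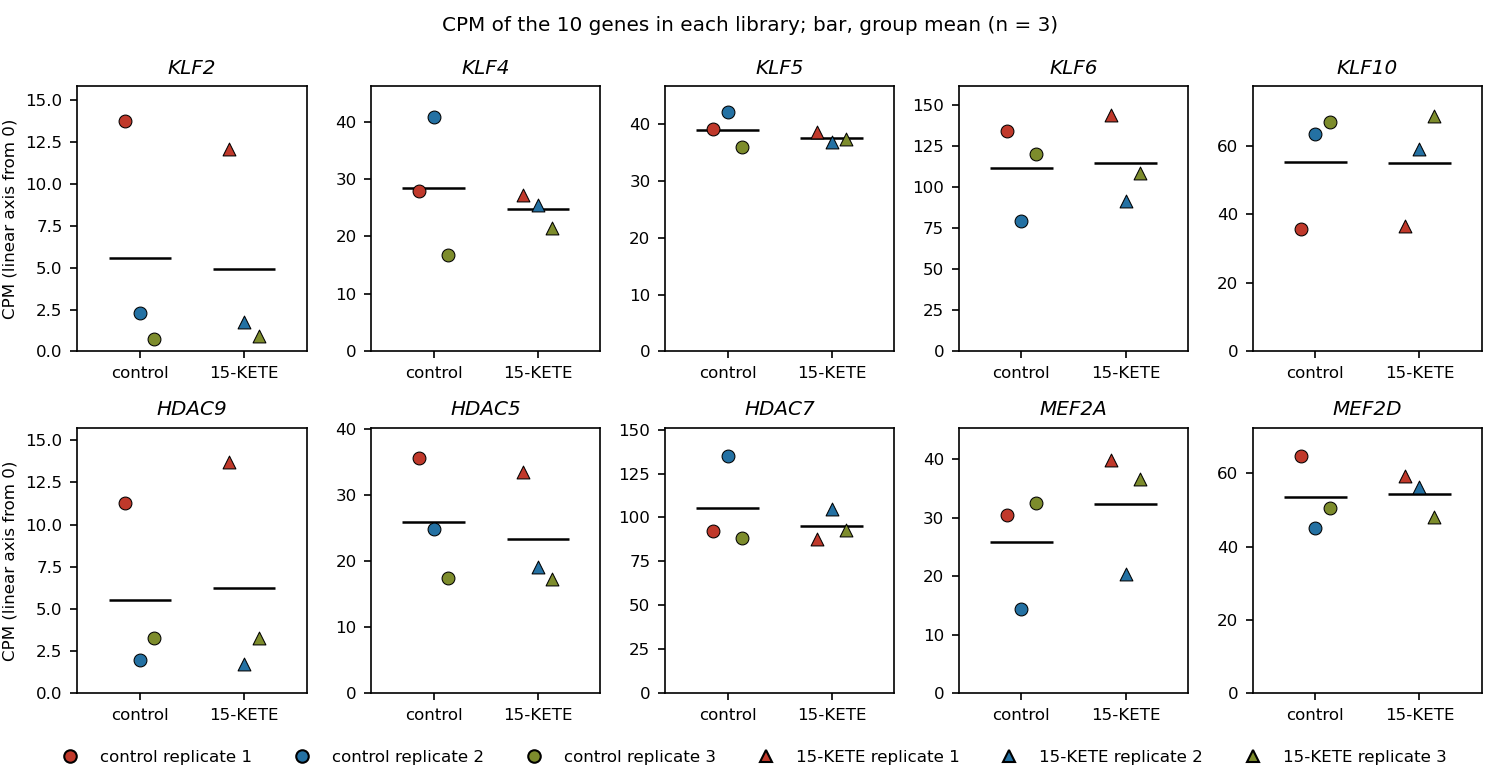
CPM of each of the 10 genes (linear vertical axes from 0) in the 3 control and 3 15-KETE libraries, marked by replicate number, with a bar for the group mean. KLF2 and HDAC9 are high in both replicate 1 libraries, KLF10 is low in both, and control and 15-KETE overlap in all 10 genes.

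A MEF2 element in the KLF2 promoter is known from endothelial cells, and so the MEF2 consensus was searched on both strands of the RefSeq promoter windows (GRCh38.p14, 250 bases before to 50 after each gene start), which were found for 8 of the 10 genes in 15 windows. A match was present in 3 windows of 3 genes, KLF2, HDAC9 and MEF2A, against 2.99% of all 35116 windows and 3.67% of 27305 genes. The genes were chosen partly as MEF2 factors and their partners, and HDAC9 had 5 windows and MEF2A 3, so nothing is read from these shares. The stretch from the window's first base to the start site, or to the end of the match, is printed for these 3 genes on the plus strand, 5′ to 3′, with the match in capitals; they are KLF2 at chr19:16324576-16324825, HDAC9 at chr7:18086575-18086826 and MEF2A at chr15:99565734-99565983.
KLF2: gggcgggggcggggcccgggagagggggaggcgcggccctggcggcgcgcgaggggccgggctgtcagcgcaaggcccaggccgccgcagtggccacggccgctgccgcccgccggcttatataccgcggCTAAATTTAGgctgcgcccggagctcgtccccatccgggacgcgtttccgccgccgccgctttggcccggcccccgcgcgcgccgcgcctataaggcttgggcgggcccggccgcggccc
HDAC9: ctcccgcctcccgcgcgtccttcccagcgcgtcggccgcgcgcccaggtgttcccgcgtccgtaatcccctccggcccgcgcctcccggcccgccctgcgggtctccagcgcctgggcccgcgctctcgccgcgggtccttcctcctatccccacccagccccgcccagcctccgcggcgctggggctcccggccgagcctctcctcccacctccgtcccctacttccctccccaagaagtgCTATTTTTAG
MEF2A: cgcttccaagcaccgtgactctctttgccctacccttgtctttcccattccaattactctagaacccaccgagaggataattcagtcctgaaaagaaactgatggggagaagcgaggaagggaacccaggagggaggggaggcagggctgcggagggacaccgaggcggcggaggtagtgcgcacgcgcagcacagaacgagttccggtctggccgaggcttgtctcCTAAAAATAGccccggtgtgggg
The match lies 120 to 111 bases before the KLF2 start, from 8 bases before to the 2nd base after the first HDAC9 start, and 23 to 14 bases before one of the MEF2A starts. The other 4 HDAC9 windows and the other 2 MEF2A windows held none. CACCC, searched as those letters on both strands, was in 9 of the 15 windows, against 59.9% of all windows. The windows of KLF2, KLF4 and KLF6 held none. These are matches of letters; binding was not measured.

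Of the remaining Krüppel-like factors, KLF4 lies at chr9:107484852-107490482 on the minus strand, KLF5 at chr13:73054976-73077541 on the plus strand, KLF6 at chr10:3775996-3785281 on the minus strand and KLF10 at chr8:102648784-102655725 on the minus strand. KLF10, an early TGF-beta-induced repressor, was the one lowest in both replicate 1 libraries. It stood at 35.8, 63.5 and 66.9 CPM in control replicates 1, 2 and 3 and at 36.7, 59.2 and 68.8 CPM in 15-KETE replicates 1, 2 and 3. The 4 other libraries were all at least 1.61 times the higher replicate 1 value, and same-numbered libraries differed by at most 1.07-fold. The log2 fold change between groups was -0.01 ± 0.335 (SE).

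KLF6, an injury-induced factor with growth-suppressing roles, had the highest median level of the 10 genes, at 19.5 FPKM. It had 134, 79.5 and 120.0 CPM in control replicates 1, 2 and 3 and 143, 91.5 and 108 CPM in the 15-KETE replicates. The replicate 1 libraries were again highest, by 1.12-fold or more over the others, and the replicate 2 libraries lowest. Its log2 fold change was 0.04 ± 0.291 (SE).

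KLF4, which drives epithelial barrier differentiation, had 28.0, 40.8 and 16.8 CPM in control replicates 1, 2 and 3 and 27.1, 25.5 and 21.5 CPM in the 15-KETE replicates. Control replicate 2 was highest and control replicate 3 lowest, so that the 15-KETE values lay within the control range, and the log2 fold change of -0.21 ± 0.335 (SE) became 0.14 without control replicate 2. KLF5, a factor of proliferating epithelial cells, had 39.1, 42.1 and 35.9 CPM in the controls and 38.5, 36.9 and 37.4 CPM in 15-KETE. It varied least of the 10, with 1.07-fold between the highest and lowest number, and its log2 fold change was -0.05 ± 0.224 (SE).

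Of the deacetylases, HDAC5, which represses MEF2 in muscle and endothelium and lies at chr17:44076746-44123702 on the minus strand, had 35.7, 24.9 and 17.5 CPM in control replicates 1, 2 and 3 and 33.5, 19.2 and 17.4 CPM in the 15-KETE replicates. Both replicate 1 libraries were highest, 1.35-fold or more above the other 4, and 15-KETE lay below control within all 3 numbers. Such an order was found in 14.5% of all genes tested. The log2 differences within numbers 1, 2 and 3 were -0.09, -0.37 and -0.005, the last of which is near 0. Its log2 fold change was -0.15 ± 0.359 (SE), and 0.16 without control replicate 1.

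HDAC7, a class IIa deacetylase of endothelial and lymphoid cells, at chr12:47782722-47833132 on the minus strand, had 92.6, 135 and 88.5 CPM in control replicates 1, 2 and 3 and 87.7, 105 and 92.7 CPM in the 15-KETE replicates. The replicate 2 libraries were highest and the groups overlapped. Its log2 fold change was -0.15 ± 0.259 (SE), and 0.07 without control replicate 2.

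MEF2A, a widely expressed MEF2 factor at chr15:99565417-99716488 on the plus strand, was the gene whose 15-KETE value exceeded the control in all 3 numbers. It had 30.5, 14.5 and 32.6 CPM in control replicates 1, 2 and 3 and 40.0, 20.4 and 36.7 CPM in 15-KETE. The within-number log2 differences were 0.39, 0.49 and 0.17, yet both replicate 2 libraries lay below every other library and the groups overlapped. Such an order held for 14.6% of all genes tested. Its log2 fold change was 0.32 ± 0.379 (SE), and 0.04 without control replicate 2. With the number as a block, the log2 fold change of MEF2A was 0.35 ± 0.168 (SE). This is a description, since the gene was chosen with its values known.

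MEF2D, the other ubiquitous MEF2 factor, at chr1:156463727-156500779 on the minus strand, had 64.8, 45.1 and 50.5 CPM in control replicates 1, 2 and 3 and 59.2, 56.2 and 48.1 CPM in 15-KETE. Both replicate 1 libraries lay above the rest, by 1.05-fold at the closest, and the group difference was 0.03 ± 0.249 on the log2 scale (SE).

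Across the 10 genes, then, none had groups that did not overlap (0 of 10, beside 2.3% of all genes, of which 1.22% higher and 1.07% lower in 15-KETE). Both replicate 1 libraries were above the other 4 for KLF2, KLF6, HDAC9, HDAC5 and MEF2D (5 of 10, beside 11.6% of all genes) and below them for KLF10 (1 of 10, beside 11%). They were at least 2-fold above in KLF2 and HDAC9 (2 of 10, beside 0.149%), and at least 2-fold below in 0 of 10, beside 0.421%. Since the genes were chosen with these values known, nothing is read from these shares. The difference between the highest and lowest number was larger than the largest difference between same-numbered libraries in 9 of the 10 genes, the exception being KLF5. With both groups averaged on the log scale, number 1 stood to the mean of numbers 2 and 3 as 9.29-fold in KLF2, 4.85-fold in HDAC9, 1.77-fold in HDAC5, 1.43-fold in MEF2A, 1.41-fold in KLF6 and 0.563-fold in KLF10. The log2 range between the highest and lowest number was 3.81 for KLF2 and 2.67 for HDAC9, where MEF2A reached 1.02 and the other 7 genes less. With the number as a block, the log2 fold change between 15-KETE and control was -0.15 for KLF2, 0.06 for HDAC9 and 0.35 for MEF2A. For the other 7 genes it was between -0.16 and 0.05. The SE in this blocked fit was 0.252 for KLF2, 0.229 for HDAC9, 0.168 for MEF2A and 0.161 to 0.206 for the other 7 genes. The SEs given above without the block are larger, since they also hold the spread between numbers. Without the block, leaving out 1 library in turn changed the sign of the fold change in 9 of the 10 genes, all but MEF2A. Each removal leaves 1 library without its same-numbered partner.

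**Figure D2:**
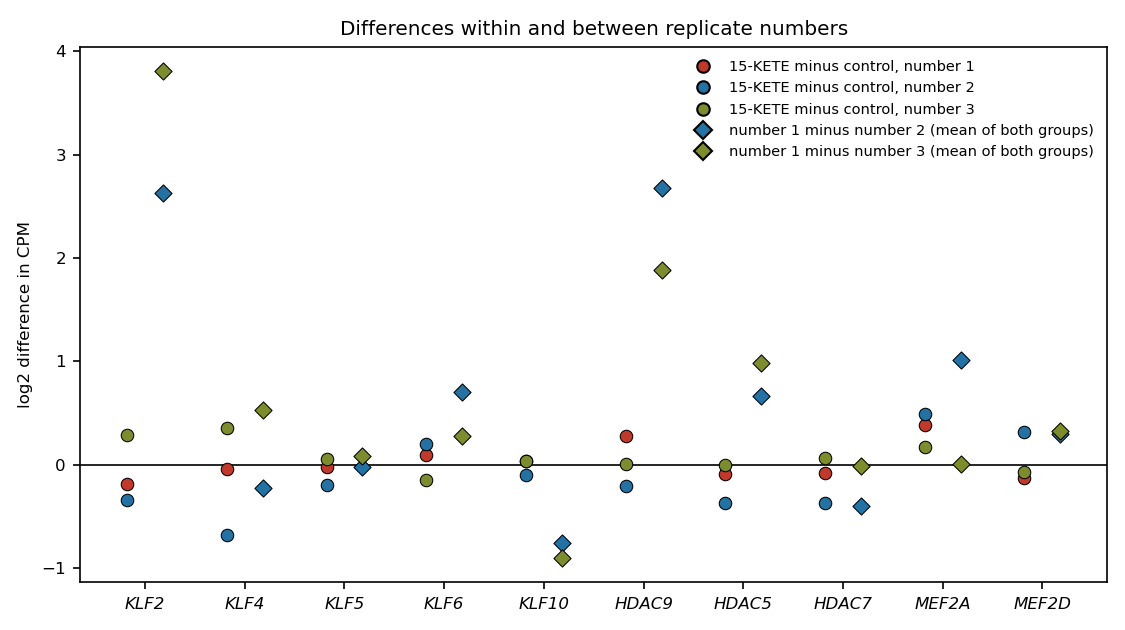
Log2 differences in CPM for the 10 genes: circles, 15-KETE minus control within each replicate number; diamonds, number 1 minus number 2 or 3 with both groups averaged. The circles lie between -0.67 and 0.49, the diamonds of KLF2 and HDAC9 lie far above them, and the diamonds of KLF10 lie below 0.

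Levels were set side by side between genes on the FPKM scale, which divides by the exonic bases deposited for each gene. The lengths of the transcripts present were not measured, and one shorter than its gene's exonic bases has too low an FPKM. By median FPKM over the 6 libraries, KLF6 (19.5), KLF10 (14.7), KLF5 (10.4) and KLF4 (7.3) were among the more abundant of 17 Krüppel-like factors, led by KLF9 (25.6), while KLF2 at 0.65 ranked 13th of 17. HDAC7 (9.7), HDAC5 (2.62) and HDAC9 (0.2) ranked 4th, 6th and 11th of 11 deacetylases, HDAC9 being the lowest by this median. HDAC9 had more counts in all than HDAC10, 661 against 283, over 17269 against 4951 exonic bases. The rank of HDAC9 thus depends on these lengths. MEF2D had 8.54 and MEF2A 4.6 FPKM, and the other MEF2 genes were near 0, with 46 counts of MEF2B and 13 of MEF2C in all 6 libraries together. HDAC9 had 0.67, 0.1 and 0.2 FPKM in control replicates 1, 2 and 3 and 0.83, 0.1 and 0.2 in the 15-KETE replicates, over 17269 exonic bases. It was not the lowest in control and 15-KETE replicate 1, where HDAC8 had 0.52 and 0.68 FPKM and HDAC10 had 0.37 and 0.46. In the replicate 1 libraries KLF2 reached 5.02 and 4.47 FPKM, where 0.27 to 0.68 was found in the other 4.

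**Figure D3:**
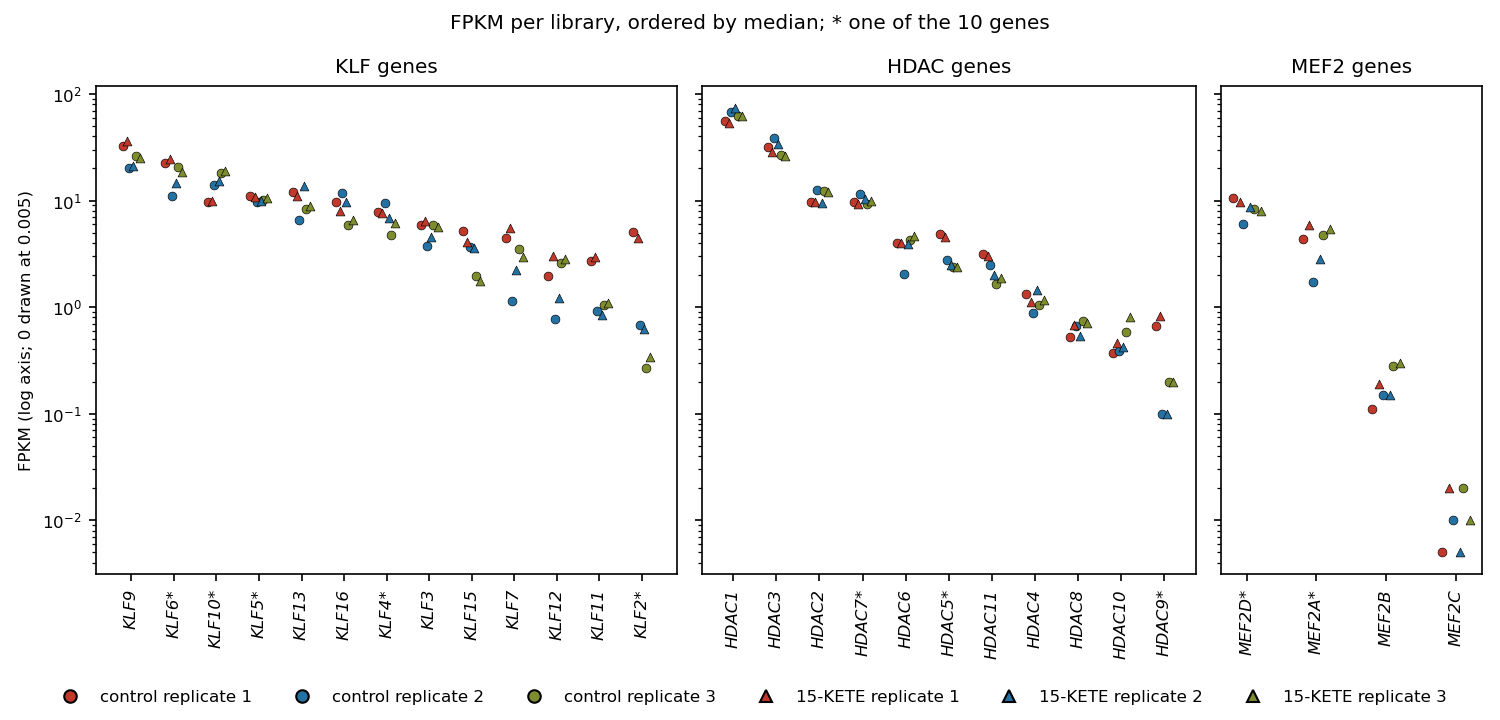
FPKM of the Krüppel-like factor, histone deacetylase and MEF2 genes in each library on a log axis, ordered by median, with the 10 described genes starred. KLF2 and HDAC9 sit low in their families and spread the most of the starred genes.

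The genes whose profile over the 6 libraries was nearest to that of KLF2 or of HDAC9 were listed by the RMS difference of their centred log2 CPM, among 13886 genes with a mean of at least 1 CPM. For KLF2 they were CHAC1, which degrades glutathione (0.358), GPNMB, a transmembrane glycoprotein (0.623), SDCBP2 (0.685), the stress transcription factor DDIT3 (0.7) and the cytokine IL24 (0.738). CHAC1 had 13.9, 2.05 and 1.25 CPM in control replicates 1, 2 and 3 and 12.5, 1.42 and 1.41 CPM in 15-KETE replicates. For HDAC9 they were CREBRF, a regulator of the stress factor CREB3 (0.361), ASNS, the asparagine synthetase (0.388), ULBP1, an NKG2D ligand (0.396), and 2 genes with no symbol (ENSG00000270681, 0.318, and ENSG00000271755, 0.381). ASNS had 21.8, 2.32 and 3.29 CPM in control replicates 1, 2 and 3 and 28.4, 2.26 and 3.96 CPM in 15-KETE replicates. Each of these genes was higher in both replicate 1 libraries than in the other 4. Nearness was measured over 6 libraries that share the same number pattern, and HDAC9 stood 17th in nearness to KLF2, while KLF2 stood 1603rd in nearness to HDAC9, of 15450 genes.

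Genes that act with the 10 were taken from 11 lists, with 97 genes of which 76 were tested. Between 15-KETE and control, 0 of the 76 rose and 0 fell (percent of genes called: 0), and 0 had an unadjusted p below 0.05. In the blocked fit 0 passed again, and 3 of the 76 had an unadjusted p below 0.05 by edgeR, beside 727 of all 15451 genes, which is no smaller a share. The 3 were EP300 (0.02961), SFN (0.02999) and NCOR1 (0.04091), each with an adjusted p of 0.6954. Without the block, the median log2 fold change of the 76 was 0.04, with 45 above 0, beside -0.002 over all genes tested. By list, the median was 0.17 over the 14 class IIa HDAC kinases, -0.20 over the 7 14-3-3 proteins and 0.09 over the 8 genes of the MEKK3, MEK5, ERK5 module and the CCM complex, and 0.04 over the 13 tested KLF and SP factors. Of the 6 genes that KLF2 raises in endothelial cells, THBD and ASS1 passed the filter on low counts. The genes of smallest p in the lists had a log2 fold change with its SE of 0.36 ± 0.348 for the KLF-related factor SP1, 0.48 ± 0.422 for the acetyltransferase EP300, 0.33 ± 0.283 for the class IIa HDAC kinase SIK2 and -0.34 ± 0.276 for CCM2 of the endothelial complex that restrains MEKK3. SMURF1, a ubiquitin ligase that acts on KLF2, had 0.32 ± 0.290, and SFN, a 14-3-3 protein, had -0.62 ± 0.496. The rest were THBD (thrombomodulin, -0.21 ± 0.368), F3 (tissue factor, -0.32 ± 0.465), JUN (-0.12 ± 0.249) and PDGFA (-0.27 ± 0.316), each with an adjusted p of 0.9996 by edgeR's quasi-likelihood test. Without control replicate 2 the log2 fold change was 0.06 for SP1, 0.10 for EP300, 0.10 for SIK2, 0.10 for SMURF1, -0.16 for CCM2 and 0.16 for SFN. It was 0.13 for THBD, 0.12 for F3, 0.007 for JUN and 0.11 for PDGFA, where the sign changed as it did for SFN. Control replicate 2 was lowest of the 6 libraries in FPKM for SP1, EP300 and SIK2 and highest for SFN, THBD and F3.

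Differences between the 3 replicate numbers were tested, in a comparison added after the values were seen, by an edgeR F test in the fit with group and number. Of all genes tested, 33.4% passed, and 27 of the 76 list genes did (35.5%). The count over all genes, 5163, fell to 2330 without control replicate 3, 2881 without control replicate 1 and 3158 without 15-KETE replicate 1, and reached 8209 without control replicate 2 and 10512 without 15-KETE replicate 2. The count of list genes ran from 19 without control replicate 3 and 20 without either replicate 1 library to 54 without control replicate 2 and 66 without 15-KETE replicate 2. By list, 8 of the 13 tested KLF and SP factors passed (61.5%). Both replicate 1 libraries were above the other 4 for 7 of these 13, beside 11.6% of all genes. The genes of these counts differ in part: KLF7, KLF11 and SP6 were in both. KLF3, KLF9, SP1 and SP2 had this order without passing, and KLF12, KLF15, KLF16, SP3 and SP4 passed without this order. Further, 3 of the 5 tested genes that KLF2 lowers in endothelial cells passed, with both replicate 1 libraries below the other 4 for CCL2, CXCL8 and F3, beside 11% of all genes. Without either replicate 1 library, 1 of these 5 passed, F3, and CCL2 also did not pass without 15-KETE replicate 3. In the other lists, 2 of 10 deacetylases and corepressors, 0 of 3 MEF2 factors and cofactors, 3 of 14 class IIa HDAC kinases, 1 of 7 14-3-3 proteins, 2 of 8 genes of the MEKK3 module and CCM complex, 2 of 3 ubiquitin ligases, 2 of 2 genes raised by KLF2, 1 of 4 MEF2 targets and 3 of 7 cell cycle and TGF-beta genes passed. The lists are small, and nothing is called particular to them. Among genes named after their values were seen, KLF11, a TGF-beta-induced repressor, had 2.68 and 2.96 FPKM in the replicate 1 libraries and 0.85 to 1.09 in the other 4 (adjusted p = 0.002241 by edgeR). CCND1, cyclin D1, had 16.65 and 15.02 FPKM in the replicate 1 libraries and 45.48 to 62.52 in the other 4 (adjusted p = 0.000525 by edgeR). F3 had 11.26 and 12.12 FPKM against 23.02 to 32.88, and CXCL8, interleukin-8, had 24.52 and 21.85 against 40.2 to 56.3 FPKM (adjusted p = 0.002017 and 0.004386 by edgeR). With 2 libraries per number, and no label saying what a number stands for, the sources of these differences cannot be told apart.

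**Figure D4:**
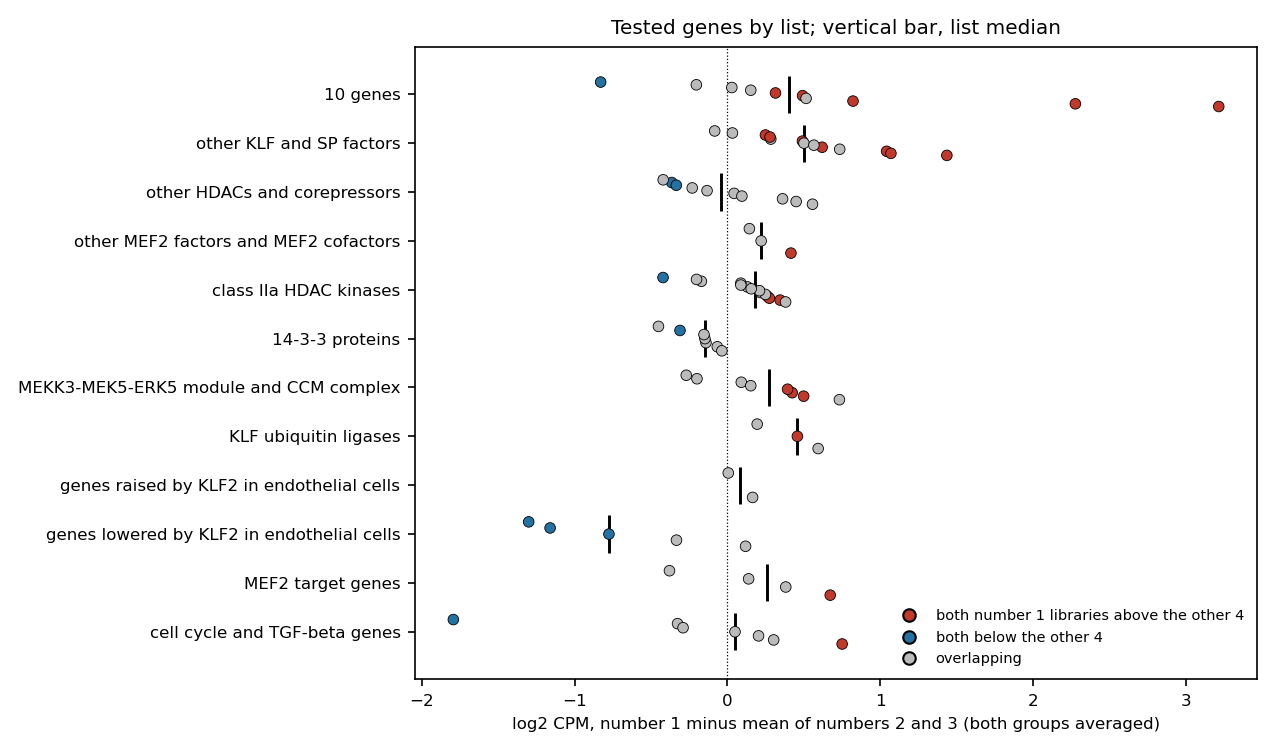
Log2 CPM of the tested list genes, number 1 minus the mean of numbers 2 and 3 with both groups averaged, one row per list, a vertical bar at the list median. Red points are genes with both replicate 1 libraries above the other 4, blue below them; most of the KLF and SP factors lie above 0 and CCND1 lies far below it.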

How the data were processed

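RNA of 6 BEAS-2B libraries was analysed from 1 deposited table. Its raw counts per gene were deposited by the authors without normalisation, per the file headers, and its FPKM values were scaled by the authors to exonic length and library total, per the file headers. HISAT2 2.2.1, HTSeq 0.6.1, cutadapt 1.9.1 and edgeR 3.4.6 are among the tools listed, without their roles, in the submitters' processing notes. Build and strand setting are not given in the sources used here; antisense reads cannot be told apart from sense reads; all 10 genes lay on the same chromosome as in GENCODE 29, and 8 shared a start or an end.

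Counts were filtered by group with filterByExpr, scaled with TMM and tested with edgeR 4.0.16 in R 4.3.3 (robust quasi-likelihood, Benjamini-Hochberg over 15451 genes, threshold 0.05). DESeq2 1.42.0, limma 3.58.1 (voom, and trend on log2(FPKM + 1)), other scalings and filters, the replicate number as a block and leaving out each library in turn were alternatives. On simulated data with these libraries' spread by number, the fit without the block recovered none of the differences put in, and the fit with the block recovered most of the larger ones. Deviations from the group means correlated at 0.57, 0.646 and 0.722 between same-numbered libraries and at -0.564 to -0.092 between others. Such deviations cancel out within a group, so the negative values follow in part from the positive ones. On the positive values, the numbers, taken from the titles, were treated as pairing the libraries. Poisson intervals are exact and cover counting error only. The 10 genes and the lists were chosen with earlier results of these data known. Named were all 10 genes, the gene of smallest p in each list (1 of these is not reported here), and the 5 genes nearest in profile to KLF2 and to HDAC9; others were named after their values were seen.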

Additional observations from a re-analysis of the deposited data

How the results depend on the processing

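The count of genes called between 15-KETE and control was 0 under every alternative, including DESeq2, limma-voom and limma-trend, and a replicate block for the number also gave 0, with 727 genes at an unadjusted p below 0.05 against 25 without it. Neither count exceeds the share of 0.05 of the 15451 genes expected at this threshold if no gene differed. Unadjusted counts were 31 for DESeq2, 32 for limma-voom, 73 for limma-trend on log2(FPKM + 1), 450 with every gene of at least 1 count and 14 with at least 1 CPM in 3 libraries. None of the 76 list genes was called under any alternative. All alternatives but the replicate block leave the spread between numbers in the error. Their counts of 0 are therefore no separate evidence that 15-KETE changed no gene. Leaving out 1 library in the fit without the block moved the KLF2 log2 fold change from 1.72 (without control replicate 1) to -2.03 (without 15-KETE replicate 1). That of HDAC9 moved from 1.24 to -1.12 in the same way. The fold change of MEF2A was above 0 under 14 of 14 settings. Leaving out 1 library gave log2 fold changes of -1.01 to 0.16 for SFN, -0.50 to 0.13 for THBD, -0.67 to 0.12 for F3, -0.25 to 0.007 for JUN and -0.42 to 0.11 for PDGFA, which changed sign without control replicate 2, as THBD did also without 15-KETE replicate 3. The count of genes that differ between replicate numbers ranged from 2330 (without control replicate 3) to 10512 (without 15-KETE replicate 2), against 5163 with all libraries. CXCL8 did not pass that test without either replicate 1 library, nor did CCL2, which also did not pass with library totals alone or without 15-KETE replicate 3, and KLF11, CCND1 and F3 passed in 13 of 13 settings. The cause was not tested. Depth limits KLF2 most, with 13 and 17 counts in the replicate 3 libraries.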
